A study of Mus musculus with 2 samples.

Results

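The 41 genes described here encode the precursors of neuropeptides, proteins packed with them into dense-core vesicles, and the cerebellins, which are other secreted proteins. They were taken by symbol from a list whose rule uses no measured value, and all 41 were found among the 43346 genes of the deposited mm10 gene tables. The set holds 31 precursors of peptide transmitters and hormones, 7 granins and convertase chaperones (Chga, Chgb, Scg2, Scg3, Scg5, Vgf and Pcsk1n), and 3 cerebellins (Cbln1, Cbln2 and Cbln4).

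The tissue was mouse central nervous system (strain C57BL/6J) taken at embryonic day 14. The labels give 1 group with 2 biological replicates, each from littermates of both sexes pooled together, and name no mutation or treatment. The replicates are separate biosamples under the same donor identifier. Whether the 2 pools come from different litters is not stated in the labels, so an SD here measures only the spread between these pools. Stranded paired-end libraries were prepared from polyadenylated RNA above 200 nucleotides, depleted of ribosomal RNA and spiked with ERCC controls, and reads assigned to genes summed to 99528934 expected counts in replicate 1 and 134760822 in replicate 2. All 12 marker genes of postmitotic neurons were at 1 TPM (each gene's share of all transcripts, corrected for length) or more in both libraries, with medians of 137 and 131 TPM. Values below are given for replicate 1 and then replicate 2, and positions are on mm10.

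Neuropeptides are cut from larger precursor proteins inside the secretory pathway. Prohormone convertases cleave the precursor at pairs of basic residues, carboxypeptidase E trims the ends, and an amidating enzyme finishes many peptides before dense-core vesicles release them onto G protein-coupled receptors. In the adult brain each precursor marks particular neurons, such as Sst in cortical interneurons, Hcrt in the lateral hypothalamus, and Oxt and Avp in magnocellular neurons that project to the posterior pituitary.

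Most of the set was already transcribed at this age. Of the 41 genes, 32 reached 1 TPM in both libraries, against 34.6% of all genes and 63.4% of protein-coding genes. The 32 comprised 22 of the 31 peptide precursors, all 7 granins and chaperones, and all 3 cerebellins. Another 6 precursors (Tac2, Calcb, Vip, Cort, Agrp and Hcrt) lay lower but above 10 counts in at least 1 library. Only Oxt, Nmu and Ucn had 10 counts or fewer in each library, a state shared by 23.9% of protein-coding genes.

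Levels among the precursors were very uneven. The summed level of the 31 precursors was 447 and 442 TPM, and the 5 highest (Sst, Npy, Penk, Tac1 and Cck) held 74.0% and 77.7% of it. Sst alone held 32.8% and 37.9%. The median over all 31 precursors, detected or not, was 3.74 and 3.60 TPM. Protein-coding genes detected in both libraries had a median of 21.3 and 21.2 TPM. That median leaves out undetected genes, so it is not over a like set and the gap cannot be read from these values. When the 41 genes were ordered by mean TPM, the values of neighbouring genes overlapped in 31 of 40 steps. Only the steps after Sst, Scg5, Npy, Cbln1, Scg2, Cck, Cbln2, Ghrh and Nmu separated neighbours beyond their ranges. The steps after Ghrh and Nmu rest on few counts. Ghrh had 21 and 46 counts and Tac2, next below, 14 and 36. Nmu had 5 and 6 and Ucn 0 and 1. For counts scaled by the library total, without length, exact Poisson intervals overlapped within each of these pairs in both libraries. Counts alone therefore do not separate these neighbours.

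**Figure D1:**
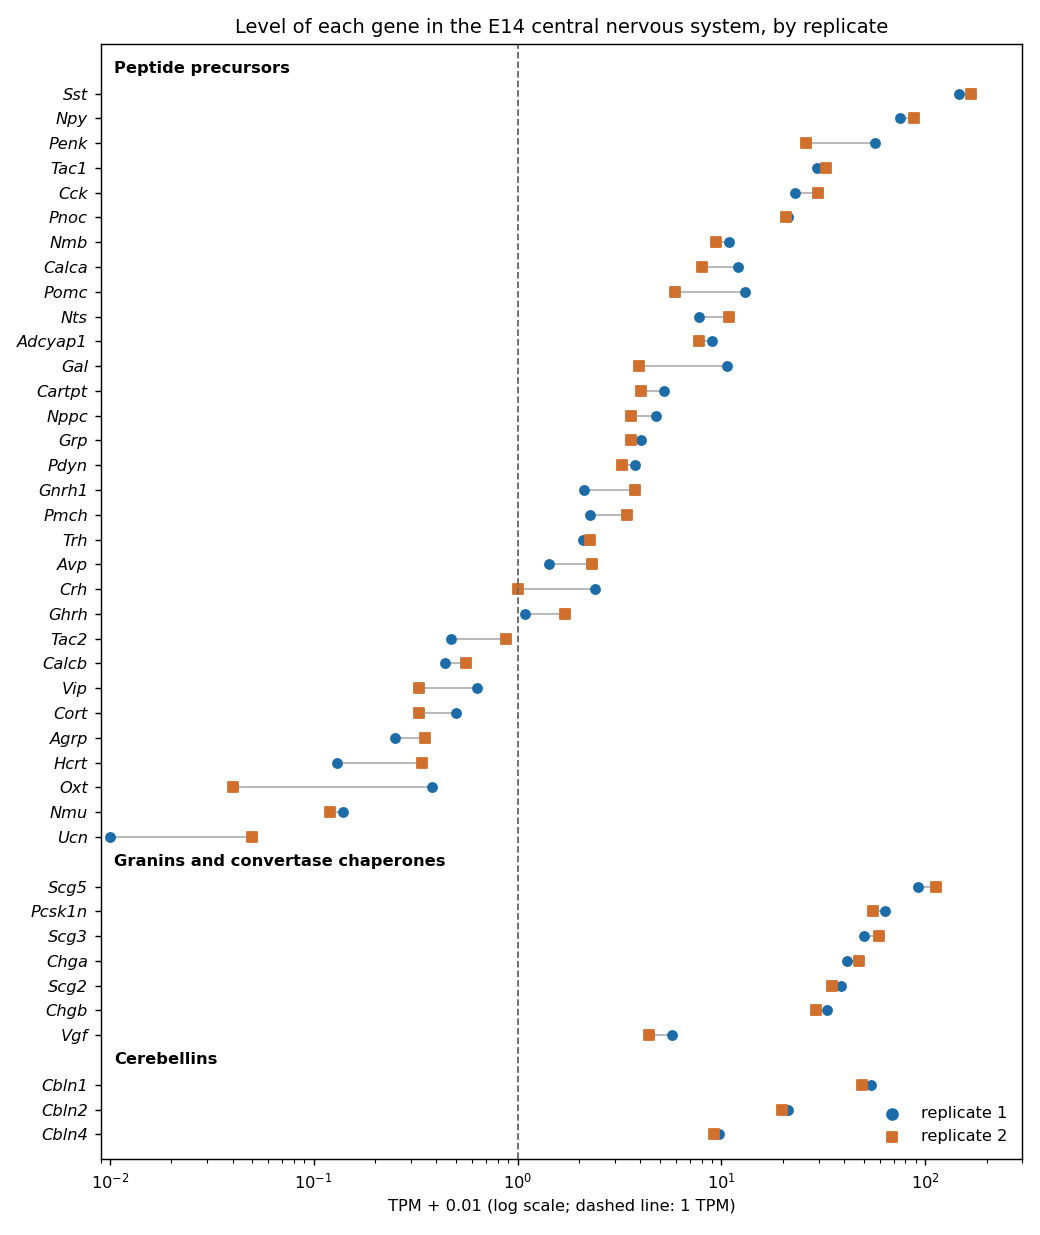
Level of each of the 41 genes as TPM + 0.01 on a log axis, with a circle for replicate 1, a square for replicate 2 and a grey line joining them. The 22 precursors to the right of the dashed line at 1 TPM, the 7 granins and chaperones and the 3 cerebellins were detected in both libraries, while Oxt, Nmu and Ucn sit at the bottom of the precursor block.

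The somatostatin family held both the highest precursor and one of the lowest. Sst (chr16:23889573-23890958, minus strand), whose peptide inhibits hormone release and marks a class of inhibitory interneurons, had 147 and 167 TPM (157 ± 14.8, SD, n = 2). Only 865 of 21474 protein-coding genes had a higher mean. Its close relative Cort, which encodes cortistatin of cortical interneurons, had 0.49 and 0.32 TPM on 15 and 13 counts. Sst and Cort thus did not come near each other in either library.

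Npy (chr6:49822710-49829507, plus strand), which encodes neuropeptide Y, a peptide of interneurons and of hypothalamic neurons that promote feeding, was the next precursor. It had 75.0 and 88.1 TPM (81.5 ± 9.27, n = 2), with 2031 protein-coding genes above it. Its replicate values lay entirely below those of Sst and above those of every other precursor.

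All 4 opioid precursors were detected, and they differed in how well the replicates repeated. Penk (chr4:4133531-4138819, minus strand), the source of the enkephalins, had 56.8 TPM in replicate 1 and 26.0 in replicate 2. Pnoc, the precursor of nociceptin, had 21.2 and 20.7 TPM (20.9 ± 0.339, n = 2), the closest pair of values among the higher precursors. Pomc, from which melanocortins, ACTH and beta-endorphin are cut, had 13.1 and 5.94 TPM. Pdyn, the precursor of the dynorphins, had 3.74 and 3.25 TPM. Penk and Pomc were therefore high in replicate 1, whereas Pnoc and Pdyn were nearly level.

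The tachykinins were split. Tac1 (chr6:7554879-7565834, plus strand), which encodes substance P and neurokinin A, had 29.5 and 32.5 TPM (30.99 ± 2.12, n = 2). Tac2, the precursor of neurokinin B, lay just short of detection with 0.46 and 0.87 TPM on 14 and 36 counts. The ranges of these genes lay far apart in both libraries.

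Among the gut-brain peptides, Cck, which encodes cholecystokinin, had 22.9 and 29.9 TPM and was the lowest of the 5 leading precursors by mean TPM, though above Penk in replicate 2. Nts, the precursor of neurotensin, had 7.78 and 10.9 TPM, higher in replicate 2. Gal, the precursor of galanin, had 10.6 TPM on 346 counts in replicate 1 and 3.92 TPM on 173 counts in replicate 2.

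In the secretin family, Adcyap1, which encodes the peptide PACAP, had 8.94 and 7.72 TPM (8.33 ± 0.863, n = 2). Ghrh, the releasing hormone for growth hormone, was the lowest detected gene of the set by mean TPM, with 1.08 and 1.70 TPM on 21 and 46 counts. Vip, whose peptide is a vasodilator and a marker of cortical interneurons in the adult, had 0.62 and 0.32 TPM on 52 and 36 counts. Adcyap1 exceeded both relatives in each library.

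Calca, the shared gene of calcitonin and the alpha form of calcitonin gene-related peptide (CGRP), had 12.0 and 8.00 TPM. Its paralog Calcb, which encodes the beta form of CGRP, had 0.43 and 0.55 TPM on 21 and 36 counts. These copies are similar enough that reads may be divided between them, so the low value of Calcb is uncertain.

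The bombesin-like peptide genes were low to moderate. Nmb, the precursor of neuromedin B, had 10.8 and 9.43 TPM. It overlaps Sec11a on the same strand, and reads of the shared stretch could be counted for either gene. Grp, which encodes gastrin-releasing peptide, had 4.01 and 3.60 TPM. Nppc, the precursor of C-type natriuretic peptide, which guides branching of sensory axons in the cord, had 4.77 and 3.61 TPM. Values of Grp and Nppc overlapped.

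The hypothalamic releasing hormones were transcribed at a few TPM. Gnrh1, made by neurons that migrate from the nose to the forebrain and control reproduction, had 2.10 and 3.74 TPM on 43 and 105 counts. Trh, the releasing hormone of the thyroid axis, had 2.09 and 2.27 TPM (2.18 ± 0.127, n = 2). Crh, the releasing hormone of the stress axis, had 2.38 TPM in replicate 1 and 1.00 in replicate 2, at the edge of detection. The values of these 3 genes overlapped.

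Peptides of feeding and arousal were divided. Cartpt, which encodes the appetite-reducing CART peptides, had 5.25 and 4.01 TPM. Pmch, the precursor of melanin-concentrating hormone, had 2.26 and 3.43 TPM on 79 and 162 counts. Agrp, an antagonist of melanocortin receptors, had 0.24 and 0.34 TPM, and its gene model spans several other genes, 2 of them on its own strand, so these values are uncertain. Hcrt, the precursor of the orexins, had 0.12 and 0.33 TPM on 3 and 11 counts. Cartpt and Pmch were detected in both libraries and the other two in neither.

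The neurohypophysial hormone genes are neighbours on chromosome 2, transcribed towards each other, and only one was detected. Avp (chr2:130580620-130582554, minus strand), which encodes vasopressin, had 1.41 and 2.32 TPM on 34 and 76 counts. Oxt (chr2:130576173-130577054, plus strand), the oxytocin gene, had 0.37 and 0.03 TPM on 8 counts and 1 count. As CPM (counts scaled by the library total) these were 0.0804 with an exact Poisson 95% interval of 0.0347 to 0.158 in replicate 1, and 0.00742 with an interval of 0.000188 to 0.0413 in replicate 2. In TPM, Avp exceeded Oxt in each library.

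The other near-zero genes were Nmu and Ucn. Nmu, the precursor of neuromedin U, had 5 and 6 counts, or 0.0502 CPM (0.0163 to 0.117) and 0.0445 CPM (0.0163 to 0.0969). Ucn, which encodes urocortin, a relative of Crh, had 0 counts in replicate 1 and 1 in replicate 2. A count of 0 allows up to 3 counts, which is 0.0301 CPM at the depth of replicate 1, and the count in replicate 2 is 0.00742 CPM (0.000188 to 0.0413). These intervals and limits describe counting error alone, and without molecular identifiers copies made by PCR count as separate reads.

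Genes near the detection threshold were ordered closely. Ghrh, Crh and Avp were the last inside it, and Tac2, Calcb and Vip the first outside it. Crh would leave the detected group with any lower value in replicate 2.

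Granins and convertase chaperones stood above most peptide precursors. Scg5 (chr2:113776362-113829121, minus strand), the chaperone 7B2 of prohormone convertase 2, had 91.8 and 113 TPM (102 ± 14.8, n = 2), second only to Sst in the set. Pcsk1n, the inhibitor proSAAS of prohormone convertase 1, had 63.2 and 55.5 TPM, and Scg3, which tethers granin cargo to the vesicle membrane, had 50.3 and 59.1 TPM. Values of Pcsk1n and Scg3 overlapped.

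Chga, chromogranin A, the acidic core protein of dense-core vesicles, had 41.3 and 47.5 TPM. Scg2, the precursor of secretoneurin, had 38.4 and 34.7 TPM, and Chgb, chromogranin B, had 33.0 and 29.0 TPM. Vgf, a granin whose transcript is induced by nerve growth factor, was the exception at 5.70 and 4.39 TPM. The highest of these 4 genes was thus Chga in both libraries, and Vgf lay below the other 3.

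The 7 genes summed to 324 and 343 TPM, with medians of 41.3 and 47.5 TPM. On the log2(TPM + 1) scale their median exceeded that of the 31 peptide precursors by 3.16 and 3.40 (3.28 ± 0.171, n = 2). The difference was larger than its spread between replicates, and no test was run on these 2 values. All 7 were detected and 22 of the 31 precursors were.

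The cerebellins, secreted proteins some of which bridge presynaptic neurexins to delta glutamate receptors, were all detected. Cbln1 (chr8:87468405-87472609, minus strand), which cerebellar granule cells use in the adult, had 54.4 and 49.2 TPM (51.8 ± 3.71, n = 2). Cbln2 had 21.3 and 19.9 TPM, and Cbln4 had 9.70 and 9.21 TPM. The order of the 3 was the same in both libraries, with no overlap.

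Spliced reads gave another view of the same libraries. The deposited table of splice junctions on mm9 has 2 fields that no label ties to the numbered replicates, so reads were summed over both. At least 3 reads in junctions inside the gene, on its strand, were found for 39 of the 41 genes, against 81.3% of protein-coding genes of that annotation. All 32 detected genes passed, with 33 (Crh) to 15118 (Scg3) reads. The exceptions were Hcrt and Ucn, each with 0. The 14 counts of Hcrt over both libraries were thus without a spliced read in that table.

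Of the genes below detection, several had clear splicing. Tac2 had 118 reads in junctions between annotated exons, Calcb 48, Vip 52 and Agrp 28, while Cort had only 3, the minimum used. Among the near-zero genes Nmu had 21 such reads and Oxt 9. Annotated junction reads outnumbered the summed expected counts on mm10 for Tac2, Ghrh, Nmu, Gal, Gnrh1, Agrp and Npy, by a factor of 2.36 in Tac2 down to 1.03 in Npy, and 1 fragment can cross several junctions. Apart from Hcrt and Ucn, the lowest ratio of junction reads to counts was 0.0750 in Scg2, followed by 0.107 in Cort, 0.115 in Penk and 0.125 in Crh.

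**Figure D2:**
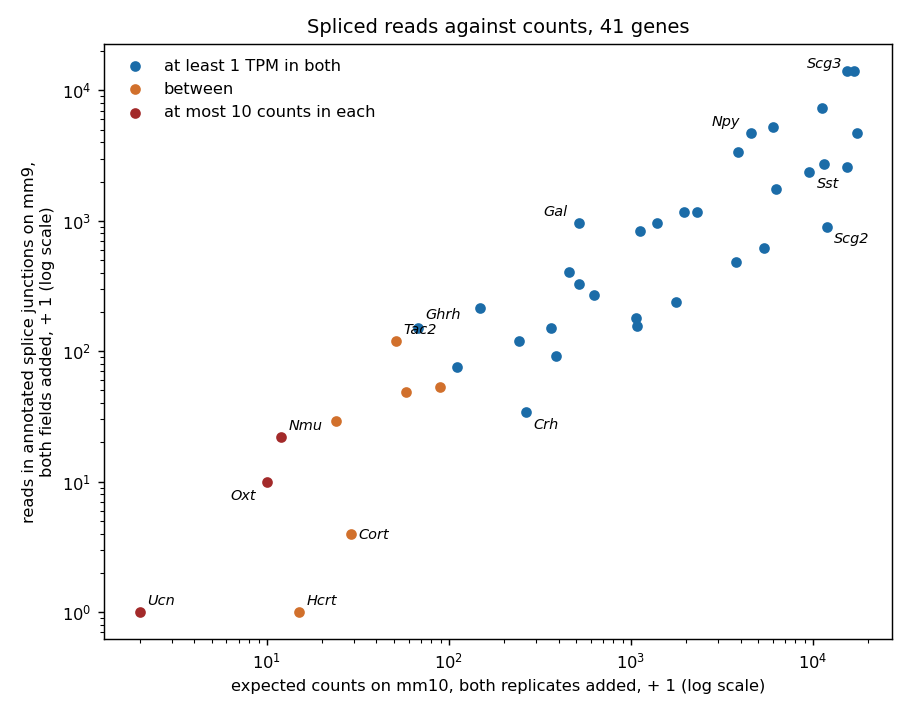
Reads in annotated splice junctions on mm9 (both fields added, + 1) against expected counts on mm10 (both replicates added, + 1) for the 41 genes, on log axes, coloured by detection group. Hcrt and Ucn lie on the floor of the vertical axis with 0 junction reads, and Tac2, Ghrh, Nmu and Gal have the highest ratios of junction reads to counts.

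The deposited mm9 gene table gave lower values throughout. In its RPKM (reads scaled by transcript length and by depth), 15 of the 41 genes reached 1 in both fields, against 47.9% of protein-coding genes. These 15 were all among the 32 detected on mm10. The mm10 FPKM was a median of 5.93 times the mm9 RPKM over the 41 genes and 5.15 times over all genes with a mean of at least 50 counts, so the shift was present over all genes too and the same threshold is stricter on mm9. Sst remained the highest precursor there, with 12.2 and 14.0 RPKM.

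Alternative splicing sets which peptide some precursors yield. The transcripts of Calca share exon 3 (chr7:114634468-114634608, minus strand) and then take exon 4, which encodes calcitonin, or exon 5, which encodes CGRP. The joins are shown as the last 15 bases of exon 3 in lower case and the first 15 bases of the next exon in capitals, read from GENCODE M21 transcripts on mm10, because the junction reads turn on them.
Calca exon 3 to exon 5, CGRP: ggctgagggctctagTGTCACTGCTCAGAA
Calca exon 3 to exon 4, calcitonin: ggctgagggctctagCTTGGACAGCCCCAG

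The CGRP transcript (ENSMUST00000032906) held 88.4% and 88.9% of the gene's deposited TPM, and the calcitonin transcript (ENSMUST00000032907) 11.6% and 11.1%. By junction reads, 247 of 257 reads leaving exon 3 joined exon 5, which is 96.1% with an exact Clopper-Pearson 95% interval of 93.0% to 98.1%. Both readouts put the neuronal CGRP form first in this tissue.

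Tac1 transcripts differ by a 45-base exon. With exon 4 the precursor is the beta form and without it the gamma form, and both carry substance P and neurokinin A. Exon 4 (chr6:7557216-7557260, plus strand) is printed in capitals with 15 bases of each neighbouring exon in lower case, followed by the join that skips it, in which the first 15 bases of the next exon are in capitals.
Tac1 with exon 4: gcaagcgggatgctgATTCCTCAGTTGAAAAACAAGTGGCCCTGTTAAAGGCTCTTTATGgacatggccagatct
Tac1 without exon 4: gcaagcgggatgctgGACATGGCCAGATCT

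Here the readouts went opposite ways. The transcript with exon 4 (ENSMUST00000185187) held 57.8% and 64.4% of the gene's TPM, and the one without it (ENSMUST00000184986) 34.5% and 34.6%. By junction reads, 434 of 577 reads leaving exon 3 skipped exon 4, or 75.2% (71.5% to 78.7%), and the lowest and highest field gave 74.3% and 75.9%. Of reads joining exon 3 or exon 4 to exon 5, 434 of 598 came from the skipping join (72.6%, 68.8% to 76.1%), and a further 5 reads joined exon 2 to exon 5. The transcript models also differ at both ends, with 1230 and 691 bases, and what this does to the TPM shares was not tested. Skipping of exon 6, which removes neurokinin A, was rare at 16 of 659 reads leaving exon 5 (2.43%, 1.39% to 3.91%).

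**Figure D3:**
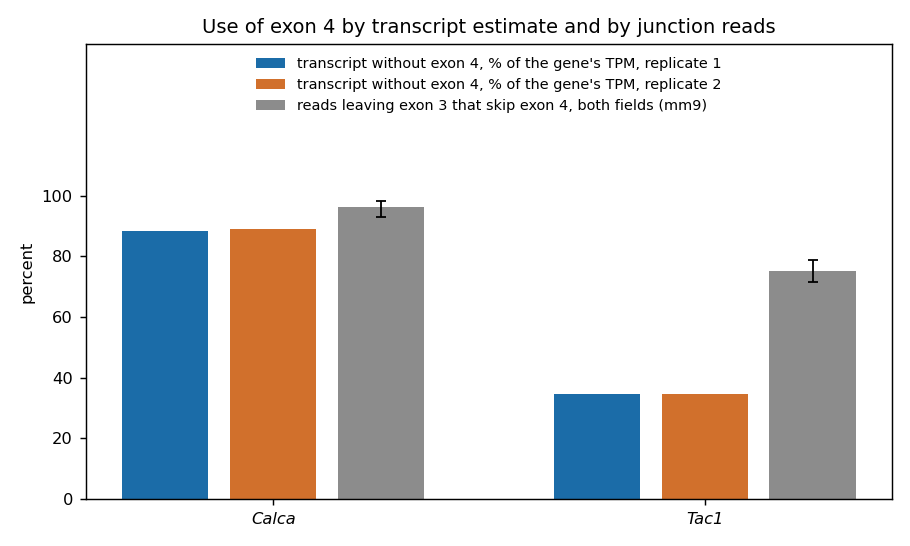
Percent of the gene's TPM in the named transcript without exon 4 in replicate 1 and replicate 2, beside the percent of reads leaving exon 3 that skip exon 4 (both mm9 fields added, error bar: exact 95% interval), for Calca and Tac1. For Calca the bars stand at 88.4, 88.9 and 96.1%, and for Tac1 at 34.5, 34.6 and 75.2%.

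Of the 41 genes, 25 had a single transcript in the deposited tables. Another 11, Calca and Tac1 among them, had 2 or more transcripts holding at least 10% of the gene's TPM on average. Both transcripts of Penk were lower in replicate 2, the longer with 30.5 and 15.2 TPM (53.6% and 58.6% of the gene) and the shorter with 26.4 and 10.8 TPM. Scg2 was split almost evenly, with 50.4% and 53.0% in its leading transcript. The leading transcript of Cbln1 held 82.8% and 78.9%, that of Vgf 79.4% and 85.8%, and that of Cbln2 38.7% and 41.7%. That of Ghrh held 81.3% and 60.1% on 21 and 46 counts and that of Grp 63.9% and 83.6%. Nmb changed its leading transcript, from 42.9% to 51.4% for one and from 46.0% to 34.3% for the other, and the leading transcript of Agrp held 78.1% and 74.8% on 8 and 15.1 counts.

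Promoters of several of these genes carry a cyclic AMP response element, the palindromic octamer TGACGTCA bound by CREB, first defined on Sst. In RefSeq promoters of GRCm38.p6 (250 bases before to 50 after the annotated start, both strands, which are the same for a palindrome) it occurred in 5 of the 31 genes of the set with an entry (16.1%) and in 549 of 27025 genes overall (2.03%). The 5 were Sst, Scg2, Chgb, Cartpt and Ucn. They are shown with 11 bases on each side, in gene orientation and with the octamer in capitals, because they span the highest precursor and the lowest.
Sst, chr16:23890874-23890903, minus strand: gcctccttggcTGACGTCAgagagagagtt
Scg2, chr1:79440076-79440105, minus strand: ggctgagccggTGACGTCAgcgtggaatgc
Chgb, chr2:132781559-132781588, plus strand: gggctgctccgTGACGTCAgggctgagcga
Cartpt, chr13:99900777-99900806, minus strand: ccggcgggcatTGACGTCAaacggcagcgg
Ucn, chr5:31138921-31138950, minus strand: atgttcttcgcTGACGTCAgtcggagctgt

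The octamer began 48 bases before the RefSeq start in Sst, 68 in Scg2, 72 in Chgb, 112 in Cartpt and 44 in Ucn. GENCODE M21 places the outermost start of Sst, Scg2, Chgb and Cartpt further upstream, so there the octamer lies inside the gene model. Mean levels of the 5 genes ranged from 157 TPM (Sst) over 36.6 (Scg2), 31.01 (Chgb) and 4.63 (Cartpt) to 0.02 (Ucn). Of the genes with the octamer 4 of 5 were detected, and of those without it 20 of 26, and it occurred both in the highest precursor and in the lowest. A match of letters is a description and not a measured binding site.

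Between the replicates, 4 precursors were at least 2-fold apart. Ratios were taken as replicate 2 over replicate 1 of TMM-scaled counts for the 31 genes with a mean of at least 50 counts. Penk, Pomc, Gal and Crh were at least 2-fold lower in replicate 2, against 5.47% of 16721 genes of that abundance, and 0 were at least 2-fold higher, against 0.419%. The ratios compare 1 library with 1 library of the same group, so there is no p-value.

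Gal had the lowest log2 ratio, -1.41, with an exact counting interval of -1.69 to -1.15. Crh had -1.24 (-1.62 to -0.87) on 169 and 95 counts, Pomc -1.12 (-1.30 to -0.94) and Penk -1.06 (-1.14 to -0.98). The value of Crh depended on the scale, and on log2(TPM + 1) it was -0.76, under 2-fold. Calca came next at -0.57 (-0.74 to -0.40).

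On the other side, Gnrh1 had 0.86 (0.35 to 1.42), Avp 0.73 (0.14 to 1.37), Pmch 0.62 (0.23 to 1.03), Nts 0.50 (0.34 to 0.67) and Cck 0.41 (0.27 to 0.54). These genes were higher in replicate 2 by less than 2-fold. Of the 3 most abundant precursors by mean TPM, Sst had 0.22 and Npy 0.27, and Penk is among the 4 above. Granins and chaperones ranged from -0.38 (Vgf) to 0.31 (Scg5), and the cerebellins from -0.16 (Cbln1) to -0.07 (Cbln4).

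Over the 31 genes the median log2 ratio was -0.09, against 0.01 for all genes of that abundance, and the median absolute ratio was 0.24 against 0.16. Ratios below 0 were found for 19 genes and above 0 for 12, where 47.7% of all such genes were below 0. Counting intervals lay wholly below 0 for 14 genes and wholly above 0 for 11. For these 25 genes the libraries differed by more than counting error. Such intervals were not computed for all genes of that abundance, so whether these counts are particular to the set is not known.

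**Figure D4:**
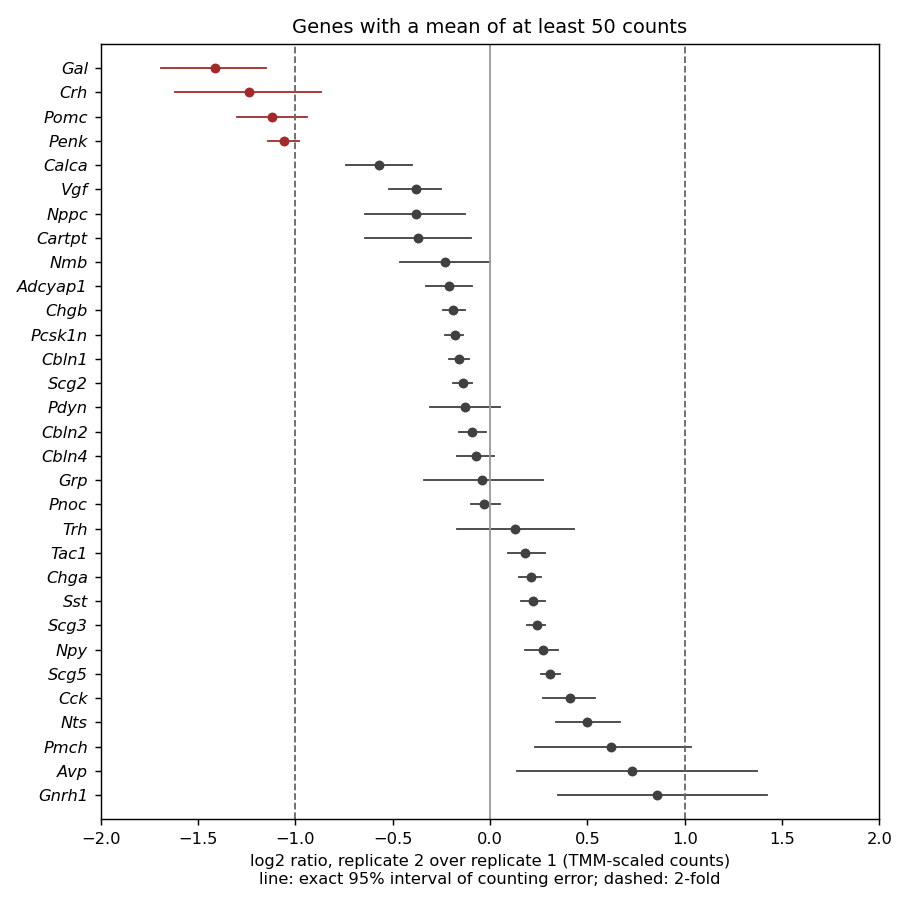
Log2 ratio of replicate 2 to replicate 1 for the 31 genes with a mean of at least 50 counts, sorted, with exact 95% intervals of counting error as lines and dashed lines at 2-fold. Gal, Crh, Pomc and Penk, in red, lie beyond the lower dashed line, and no point lies beyond the upper one.

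Markers of other tissues and regions moved in the same comparison. Of 13 genes of peripheral sensory and autonomic ganglia, where Gal and Calca are also expressed, 12 were lower in replicate 2 and 9 at least 2-fold, with a median log2 ratio of -1.46. Their summed level was 366 and 191 TPM, led by Sncg (161 and 77.3 TPM), Prph (93.1 and 29.4) and Isl1 (36.5 and 43.6), and the lowest ratio was -4.13 (Hand2). Of 7 Schwann and crest genes 6 were lower (median -1.74). Their sums of 895 and 1011 TPM rest mostly on Fabp7 (846 and 988 TPM), which radial glia also express, while Sox10 had 16.8 and 4.84 TPM.

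Pituitary genes, which mark the gland where Pomc is abundant in the adult, summed to 22.8 and 12.0 TPM. All 3 with enough counts were lower, with a median of -1.19, among them Pitx1 (4.49 and 0.43 TPM) and Lhx3 (2.73 and 1.20 TPM). Only 2 of the 12 were detected in both libraries, and the hormone genes Gh and Fshb were at 0 in both. Genes of muscle (median -5.33, 12 of 12 at least 2-fold lower, sums of 635 and 13.8 TPM), cartilage and bone (-3.26, 7 of 10, 809 and 142 TPM) and skin (-2.65, 10 of 10, 171 and 24.4 TPM) were lower too.

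Genes of the telencephalon and of its interneurons went the other way. All 11 genes of GABAergic interneurons, the cells in which Sst and Npy are found in the adult cortex, were above 0. Their median was 0.53, with sums of 341 and 490.5 TPM. Nkx2-1 and Dlx1 were at least 2-fold higher (1.08 and 1.05), but Nkx2-1 is also in the hypothalamus list and Dlx1 in the telencephalon list. Gad1 and Slc32a1, with Dlx1 the highest of the list by mean TPM, were nearly level (0.12 and 0.07). All 10 telencephalon genes were above 0 (median 0.95, sums of 533 and 1016 TPM). Hypothalamus genes went both ways, with a median of 0.37, 7 of 12 above 0 and sums of 74.6 and 97.4 TPM, from -1.86 for Tbx3 to 1.08 for Nkx2-1. Hindbrain and cord genes were mixed, with a median of -0.22 (7 of 11 below 0, sums of 140 and 169 TPM). In replicate 2, 2 of them were past 2-fold downward and 4 past 2-fold upward, the cord genes Hoxc8 (2 and 721 counts, log2 ratio 7.57), Hoxa7 (39 and 770, 3.86), Hoxc6 (116 and 1361, 3.13) and Hoxb8 (2035 and 6840, 1.33). The median of postmitotic neuron genes was 0.02 (7 of 12 above 0, sums of 4221 and 4486 TPM). The part of any of these markers in the ratios of the precursors was not tested, and in bulk tissue fewer cells of a type and less RNA per cell cannot be told apart.

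Transcripts of all 19 listed genes of precursor processing and dense-core vesicles were detected in both libraries, against 63.4% of protein-coding genes. Their medians were 17.8 and 25.1 TPM. Of the 19, 0 were 2-fold apart, against 5.47% (lower in replicate 2) and 0.419% (higher) of genes with a mean of at least 50 counts. The highest were Rab3a, a GTPase of vesicle release, with 274 and 277 TPM, Cpe, carboxypeptidase E, with 231 and 214 TPM, and Dnajc5, a vesicle chaperone, with 117 and 115 TPM. The genes named in the next sentences were picked to match members of the set after their values were seen.

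Convertases were uneven. Pcsk2, the convertase that Scg5 escorts, had 14.8 and 13.6 TPM, while Pcsk1, the convertase that Pcsk1n inhibits, had 1.36 and 1.04 TPM. The chaperone and the inhibitor thus each stood far above the enzyme they bind. Pam, which amidates peptides such as neuropeptide Y and substance P, had 33.2 and 35.4 TPM.

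Receptors were mostly low. Of 48 matched receptor genes 22 were detected in both libraries, against 63.4% of protein-coding genes. Another 6 had at most 10 counts in each, against 23.9%, and medians over the 48 were 0.955 and 1.02 TPM. Npr2, the receptor of C-type natriuretic peptide, had 65.4 and 59.3 TPM, Oprl1, the nociceptin receptor, 58.5 and 64.0 TPM, and Adcyap1r1, the PACAP receptor, 33.1 and 36.4 TPM. The precursors of these 3 ligands (Nppc, Pnoc and Adcyap1) were each below their receptor. Of the 36 receptors with a mean of at least 50 counts, only Oprd1, the delta opioid receptor, was 2-fold apart (0.35 and 0.16 TPM, log2 ratio -1.06). Among all genes of that abundance 5.47% were at least 2-fold lower in replicate 2 and 0.419% at least 2-fold higher. Below a mean of 50 counts the receptor gene furthest apart was Trhr2, a receptor of thyrotropin-releasing hormone, with 49 and 4 counts (-3.69).

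Other pairs were ordered differently. Sst was well above its most abundant receptors, Sstr2 (22.8 and 42.2 TPM) and Sstr1 (7.50 and 7.12 TPM), and Npy above Npy1r (3.45 and 2.57 TPM). Penk was above Oprm1, the mu opioid receptor (0.62 and 0.83 TPM), in both libraries. Of receptors whose ligand genes were below detection, the oxytocin receptor gene Oxtr had 0.56 and 0.42 TPM on 154 and 156 counts, and Hcrtr2, an orexin receptor, had 1.56 and 1.41 TPM. Crhr1, the receptor of corticotropin-releasing hormone, stood at 5.14 and 5.12 TPM, above Crh. Grid1, a delta glutamate receptor gene, had 6.93 and 6.08 TPM, below Cbln1 and Cbln2. Levels of transcripts are compared here per length, and they give no amount of protein.

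**Figure D5:**
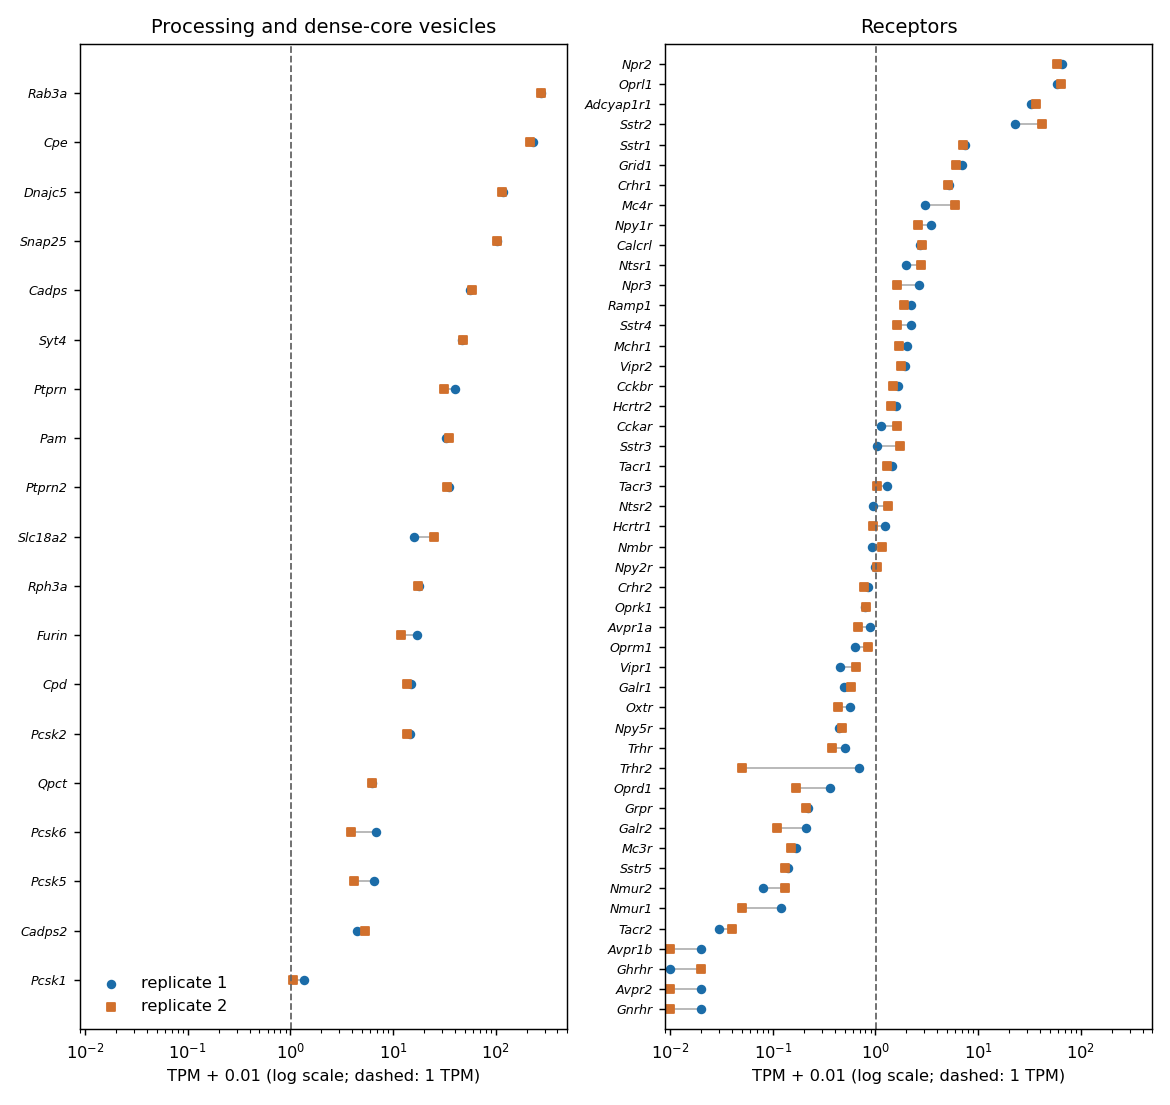
Levels of 19 genes of precursor processing and dense-core vesicles (left) and 48 receptor genes (right) as TPM + 0.01 on log axes, with a circle for replicate 1, a square for replicate 2 and a dashed line at 1 TPM. All 19 genes on the left reach the line, from Rab3a down to Pcsk1, and 22 of the 48 receptors do in both libraries.

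Most peptide precursors listed outside the set were below detection. Of 25 matched genes 7 were detected in both libraries, against 63.4% of protein-coding genes. Another 8 had at most 10 counts in each, against 23.9%, and 3 of these (Tac4, Galp and Prlh) had 0 in both. Nucb2, the precursor of nesfatin, led with 16.2 and 13.4 TPM, followed by Npff (6.88 and 6.14 TPM), which encodes an RFamide peptide, and Apln, the apelin gene (4.41 and 4.58 TPM). Of the 8 with a mean of at least 50 counts, Gcg, the glucagon precursor, was the one gene 2-fold apart, with 0.53 and 1.40 TPM (log2 ratio 1.30). Among all genes of that abundance 5.47% were at least 2-fold lower in replicate 2 and 0.419% at least 2-fold higher.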

How the data were processed

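The 2 libraries form 1 group, with replicate numbers from the labels, and their depth is given above. The deposited mm10 tables, with GENCODE M4 genes, give expected counts, TPM and FPKM for each gene and, for each transcript, its percent of TPM within the gene, per the text deposited with them. The programs for alignment and quantification were not given in the sources used here. The authors also deposited, on mm9, RPKM for Ensembl 65 genes and junction read counts, each in 2 fields. Symbols and positions come from GENCODE M21 by stable identifier.

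The 41 members, the 14 other lists and the thresholds were chosen with earlier results of these data known, although the rule for members uses no measured value. Detection is 1 TPM in both libraries. All members are named. Genes of the other lists are named from the 3 highest of each and up to 3 with the largest log2 ratio among those 2-fold apart with a mean of at least 50 counts. Expected counts were rounded and scaled by TMM, adding a prior count of 1 (edgeR 4.0.16, R 4.3.3), without spike-ins, which lay with control sequences at 3.11% and 2.66% of counts. The ratio code was checked on simulated data. Alternatives were other thresholds, scalings (DESeq2 1.42.0 size factors, ERCC counts), pseudocounts, units and single replicates. The receptor gene Galr3 and the precursor gene Kiss1 were not matched and are not analysed here, and a few other genes of the lists are not reported here. Python 3.11.15, pandas 2.3.3, scipy 1.17.1 and matplotlib 3.10.9 were used.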

Additional observations from a re-analysis of the deposited data

How the results depend on the processing

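The number of detected genes ranged from 27 to 32, the number at least 2-fold apart from 3 to 6, and the median log2 ratio from -0.15 to -0.05 over their alternatives. Of the single-gene ratios, only that of Crh changed its side of 2-fold. The number of genes near zero moved from 3 to 1 at a limit of 5 counts and to 6 at 20 counts. It was 5 with replicate 1 alone and 3 with replicate 2 alone. The excess of granins over precursors was 3.56 and 3.59 with pseudocounts of 0.1 and 0.01 and 2.06 in mm9 RPKM, against 3.28. The share of the 5 highest precursors, 75.9% on average, was 59.7% in TMM-scaled CPM, which is not per length, and 71.5% in mm9 RPKM. The number detected on mm9 was 21 at 0.5 RPKM and 14 at 2 RPKM. Requiring both sides of a junction to be annotated exons, an alternative chosen after seeing the data, left 39 genes with spliced reads. No paired analysis was possible because there is 1 group. With 2 replicates of pooled embryos, spread is poorly known, and genes of a few counts cannot be ordered at this depth.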
